A study of Arabidopsis thaliana with 32 samples.

Results

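Arabidopsis genes that answered zaxinone in roots of both the kai2 and the max2 mutant were compared for the size and the direction of that answer. A gene was a member when the authors' deposited tables of zaxinone against mock listed it for both mutants, which held for 1009 of the 3443 genes listed in any of the 4 genotypes' tables. For kai2 1833 genes were listed, and 1514 genes were listed for max2. Each listing required an adjusted p under 0.05 and a change, up or down, of 1 or more on the log2 scale, so the effect within each mutant chose the members and is given here as a description. The choice did not test the difference between the mutants, that is, the log2 fold change in kai2 minus the log2 fold change in max2. It did limit that difference, since opposite directions forced a large one and effects under the thresholds in either mutant were left out. Genes that answered in kai2 alone (824) or in max2 alone (505) were not members, so the number of differing genes below is a number among shared genes.

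The plants were grown in hydroponics and were 5 weeks old when treated. Mock plants of each genotype received 1% acetone, and treated plants received 20 µM zaxinone in 1% acetone, for 6 h, and the roots were then harvested. The 4 groups compared were kai2 mock, kai2 zaxinone, max2 mock and max2 zaxinone, with 4 libraries each, and the sources used here do not give the mutants' alleles. Nothing in the labels says that replicate libraries were grown apart, and every p-value refers to library-to-library spread alone, which may be technical. Recovered library totals were 42.8 to 68.8 M fragments in kai2 and 47.9 to 64.1 M in max2, of which the shared genes held 3.64 to 6.14%. Neither KAI2, MAX2 nor D14 was listed in both tables, so the mutated genes could not be read here as a check of the labels. None of 38 photosynthesis genes was listed in both tables, which says nothing of their levels, since the tables hold only genes that changed past the thresholds, and the labelled tissue was therefore not checked against markers of shoot.

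Zaxinone is an apocarotenoid, a small molecule cut from carotenoids, the pigments that also give rise to strigolactones and abscisic acid. KAI2 is an α/β-hydrolase that takes part in karrikin signalling and is the paralog of the strigolactone receptor D14. MAX2 is an F-box protein that acts with either receptor to mark repressor proteins for breakdown. A kai2 mutant therefore keeps the strigolactone branch, and a max2 mutant lacks the F-box protein of both branches. In roots, abscisic acid is made from carotenoids by nine-cis-epoxycarotenoid dioxygenases, is bound by PYR/PYL receptors, and acts by releasing kinases from clade A protein phosphatases 2C.

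The zaxinone effect had the same direction in the mutants for 1002 of the 1009 genes (99.3%), with 564 higher and 438 lower after zaxinone in both. The other 7 genes were listed in opposite directions. The difference in effect passed an adjusted p of 0.05 (edgeR quasi-likelihood test over the 1009 genes) for 27 genes, 2.68% of those tested. It was above 0 for 12 of them (1.19%) and below 0 for 15 (1.49%). For 7 of the 27 the opposite directions of the listing fixed a large difference, which leaves 20 of the 1002 same-direction genes whose call the listing did not fix. An unadjusted p under 0.05 was reached by 163 genes (16.2%). With TMM scaling over the shared genes in place of the authors' factors, 18 genes passed and 4 of them (22.2%) were above 0, against 44.4% in the main scaling. TMM moved the median difference of all 1009 genes from 0.04 to -0.08. Because whole roots were sequenced, fewer cells of a type and less RNA per cell cannot be told apart.

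Sizes of the effect differed little for most genes. The difference lay between -1.15 and 0.98 (5th to 95th percentile, log2) with a median of 0.04, and 897 genes (88.9%) differed by less than 1. For 437 genes (43.3%) the 95% interval of the difference lay wholly within ±1, and the median standard error was 0.34. Across genes the log2 fold changes of the mutants had a Pearson r of 0.953, a description over genes that are not independent replicates and were selected for an effect in both. Of the 564 rises, 68.4% were larger in kai2, with median log2 fold changes of 1.86 in kai2 and 1.68 in max2. Of the 438 falls, 64.6% were larger in kai2, with medians of -1.76 and -1.58. Those shares moved with the scaling, to 59.8% of rises and 76.9% of falls with TMM. All 8 same-direction falls that passed the test were deeper in kai2, and of 12 same-direction rises that passed, 11 were larger in kai2 and 1, PGIP1, was larger in max2.

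**Figure D1:**
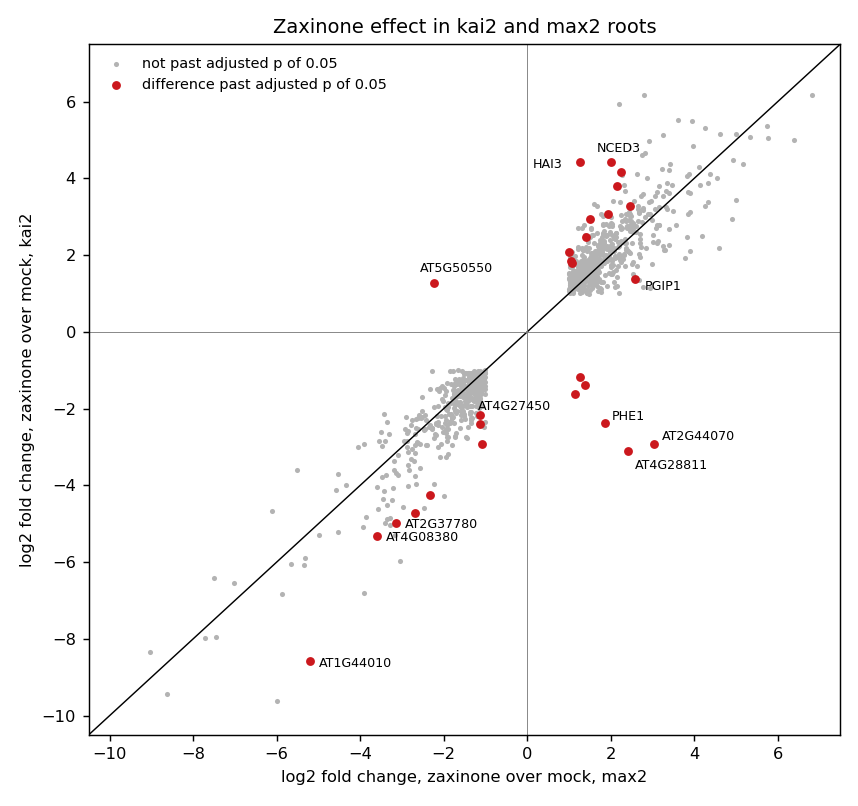
Each point is 1 of the 1009 genes listed in both tables, placed by its log2 fold change of zaxinone over mock in max2 (x axis) and in kai2 (y axis), with the line of equal effect. Red points are the 27 genes whose difference passed an adjusted p of 0.05, and 7 of these lie in the quadrants of opposite direction.

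Libraries did not all lie equally close to their group. By Dixon's test, kai2 mock replicate 1 stood apart from its group in 63 genes (6.24%), 61 of them high, and kai2 zaxinone replicate 1 in 51 genes (5.05%), 45 of them high. Every other library stood apart in 25 genes or fewer. Chance flags about 1 in 20 groups, and a group holds 4 libraries, so the chance share for any 1 library is smaller than that. Without kai2 mock replicate 1, 27 genes again passed, 18 of them shared with the full set. Without kai2 zaxinone replicate 1, 28 genes passed and 20 were shared, while AT1G63550, AT2G02700, UGT72E2, AT3G56275, CHX17, PP2CA and AT2G41190 did not pass, with edgeR adjusted p-values of 0.0537 to 0.0646.

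NCED3, HAI3 and PP2CA are genes of abscisic acid synthesis and signalling whose rise was larger in kai2. Their promoters are printed because they belong to one pathway and because clade A phosphatase genes are textbook targets of factors that bind an ACGTG core. The sequences run from 250 bases before to 50 bases after the annotated start of each gene, 5′ to 3′ on the gene's strand, from RefSeq, build TAIR10.1, with matches to ACGTG on either strand in capitals (CACGT is the reverse complement).
NCED3 chr3:4833966-4834265 minus strand: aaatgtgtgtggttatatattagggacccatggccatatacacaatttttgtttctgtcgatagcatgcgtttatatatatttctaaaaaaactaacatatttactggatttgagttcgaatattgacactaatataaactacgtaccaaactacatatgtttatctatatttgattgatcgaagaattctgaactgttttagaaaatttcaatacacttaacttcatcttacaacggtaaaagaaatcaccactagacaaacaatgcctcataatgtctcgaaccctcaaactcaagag
HAI3 chr2:12608425-12608724 plus strand: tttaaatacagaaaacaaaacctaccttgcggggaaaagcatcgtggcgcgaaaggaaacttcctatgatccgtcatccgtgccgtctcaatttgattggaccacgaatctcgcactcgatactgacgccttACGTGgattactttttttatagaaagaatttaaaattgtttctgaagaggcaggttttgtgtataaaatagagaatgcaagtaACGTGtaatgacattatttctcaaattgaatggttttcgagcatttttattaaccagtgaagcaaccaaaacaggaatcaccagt
PP2CA chr3:3585801-3586100 minus strand: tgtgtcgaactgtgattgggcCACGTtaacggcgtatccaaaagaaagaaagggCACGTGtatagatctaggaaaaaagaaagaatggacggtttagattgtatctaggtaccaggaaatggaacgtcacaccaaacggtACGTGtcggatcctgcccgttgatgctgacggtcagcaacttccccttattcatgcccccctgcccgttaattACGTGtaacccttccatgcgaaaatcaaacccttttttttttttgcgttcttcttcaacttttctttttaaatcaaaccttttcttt
The window of PP2CA held 5 matches, counting the palindrome CACGTG on each strand, and that of HAI3 held 2. NCED3 had none within these letters. Of all 27561 protein-coding promoters cut in the same way, 26.7% held ACGTG. The share was 39.4% among the 564 genes higher in both mutants, 24.9% among the 438 lower in both, and 5 of 11 (45.5%) among the genes whose rise was larger in kai2. A match is a description of letters and was not tested as a site.

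NCED3 (AT3G14440, chr3:4831286-4834015, TAIR10.1), whose enzyme catalyses the committed step of abscisic acid synthesis, rose in both mutants and more in kai2. Levels are given here as normalized counts, that is, fragments of the gene per 50 M fragments of the library, which are not corrected for gene length and are compared only within a gene. In kai2 it read 51.2, 29.4, 58.9 and 110 in the mock libraries and 1305, 1143, 1403 and 1449 in the zaxinone libraries. Its max2 libraries read 147, 193, 159 and 131 in mock and 510, 872, 530 and 632 in zaxinone. Every kai2 mock library lay below every max2 mock library, and every kai2 zaxinone library lay above every max2 zaxinone library. The log2 fold change was 4.41 ± 0.31 (SE, 4 libraries a group) in kai2 and 2.02 ± 0.28 in max2, a difference of 2.4 ± 0.39 (edgeR adjusted p = 0.00355). The call held in each of 16 fits with a library left out, with adjusted p-values of 9.58e-05 to 0.0121.

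HAI3 (AT2G29380, chr2:12608675-12610350), a clade A phosphatase gene named for its induction by abscisic acid, had the largest positive difference among the same-direction genes that passed the test. Its kai2 libraries read 3.47, 4.06, 6.44 and 5.69 in mock and 195, 58.1, 80.7 and 93.5 in zaxinone. Its max2 libraries read 4.28, 10.2, 7.25 and 7.74 in mock and 15.8, 19.0, 15.1 and 20.6 in zaxinone. The mock groups overlapped, and all 4 kai2 zaxinone libraries stood above all 4 of max2. The rise was 4.42 ± 0.42 (log2) in kai2 and 1.25 ± 0.42 in max2, a difference of 3.17 ± 0.60 (edgeR adjusted p = 0.00685), and the call held whichever library was left out.

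PP2CA (AT3G11410, chr3:3583782-3585850), another clade A phosphatase gene, was among 8 genes past the threshold that fell outside the rule for naming genes and are named after their values were seen. In kai2 it went from 1759, 1623, 1637 and 1670 in mock to 7189, 5246, 5791 and 5752 in zaxinone. In max2 it went from 1763, 1941, 1981 and 2216 to 3580, 5056, 3357 and 4268. The kai2 zaxinone libraries all lay above those of max2, and the kai2 mock libraries all lay below. Its difference of 0.80 ± 0.20 (edgeR adjusted p = 0.0456) kept its call in 4 of 16 fits with a library left out, with adjusted p-values up to 0.114, and without kai2 zaxinone replicate 1 it was 0.70 (adjusted p = 0.0646).

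All 5 clade A phosphatase genes listed in both tables rose in both mutants with a difference above 0, from 0.23 to 3.17 with a median of 0.80, a group put together after values were seen. Among all genes higher in both mutants 68.4% of differences were above 0. Kai2 zaxinone replicate 1 was the highest library of its group in all 5 genes, beside 44.5% of all genes higher in both. Without it the median was 0.70, HAI3 was at 2.7 (edgeR adjusted p = 0.00797), HAI1 at 0.08 and HAI2 at -0.16. Leaving out kai2 mock replicate 4 instead moved the median the other way, to 1.05. ABI2 rose from 262 ± 35.6 to 1501 ± 343 normalized counts (SD, n = 4) in kai2 and from 279 ± 33.0 to 815 ± 166 in max2. Its difference of 0.98 ± 0.26 missed the threshold (edgeR adjusted p = 0.0508). For HAI1 and HAI2 the differences were 0.65 ± 0.78 and 0.23 ± 0.93, with libraries that scattered widely.

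Of the 37 genes on the abscisic acid response list 19 were listed in both tables, 16 higher and 3 lower. One of them, HAI3, passed the test, and none passed below 0. The median difference was 0.41, beside 0.04 for all genes and 0.19 for all genes higher in both. Of the 19 members 13 (68.4%) were above 0, beside 68.4% of all genes higher in both and 35.4% of all genes lower in both. The list is mostly rises, so the 53.7% of all genes above 0 is no matched comparison. Kai2 zaxinone replicate 1 was the highest of its group in 14 of the 19 genes (73.7%). The same held for 34.9% of all genes, 44.5% of those higher in both and 22.6% of those lower in both. Without kai2 zaxinone replicate 1 the median was 0.18, beside 0.02 for all genes and 0.17 for all genes higher in both. Then 11 of 19 were above 0. Leaving out kai2 mock replicate 4 moved the median the other way, to 0.60, beside 0.05 and 0.19, with 13 of 19 above 0. LTI65, a desiccation-responsive gene also called RD29B, had log2 fold changes of 4.61 in kai2 and 2.74 in max2 (difference 1.87 ± 0.71, edgeR adjusted p = 0.179). LTI65 read 439 in kai2 zaxinone replicate 1 against 125 to 177 in the other 3 libraries, and its difference was 1.3 without that library. ABF3, a factor that binds abscisic acid responsive elements, had 2.01 and 2.68 (difference -0.67 ± 0.23, adjusted p = 0.138).

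The 3 members that were lower after zaxinone were the abscisic acid receptors PYL4, PYL5 and PYL6. PYL6 went from 3527 ± 624 to 201 ± 66.2 normalized counts (SD, n = 4) in kai2 and from 4627 ± 697 to 430 ± 130 in max2. The 3 receptor genes had differences of -0.13, -0.43 and -0.71, and none passed. Genes of abscisic acid metabolism did not move as a block. NCED3 passed, while the difference of the catabolic hydroxylase CYP707A1 was 0.00 with a 95% interval of -0.59 to 0.59. NCED2 and CYP707A2, at 0.881 to 19.0 mean normalized counts over the groups, had differences of -1.15 ± 1.01 and -1.21 ± 0.91.

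**Figure D2:**
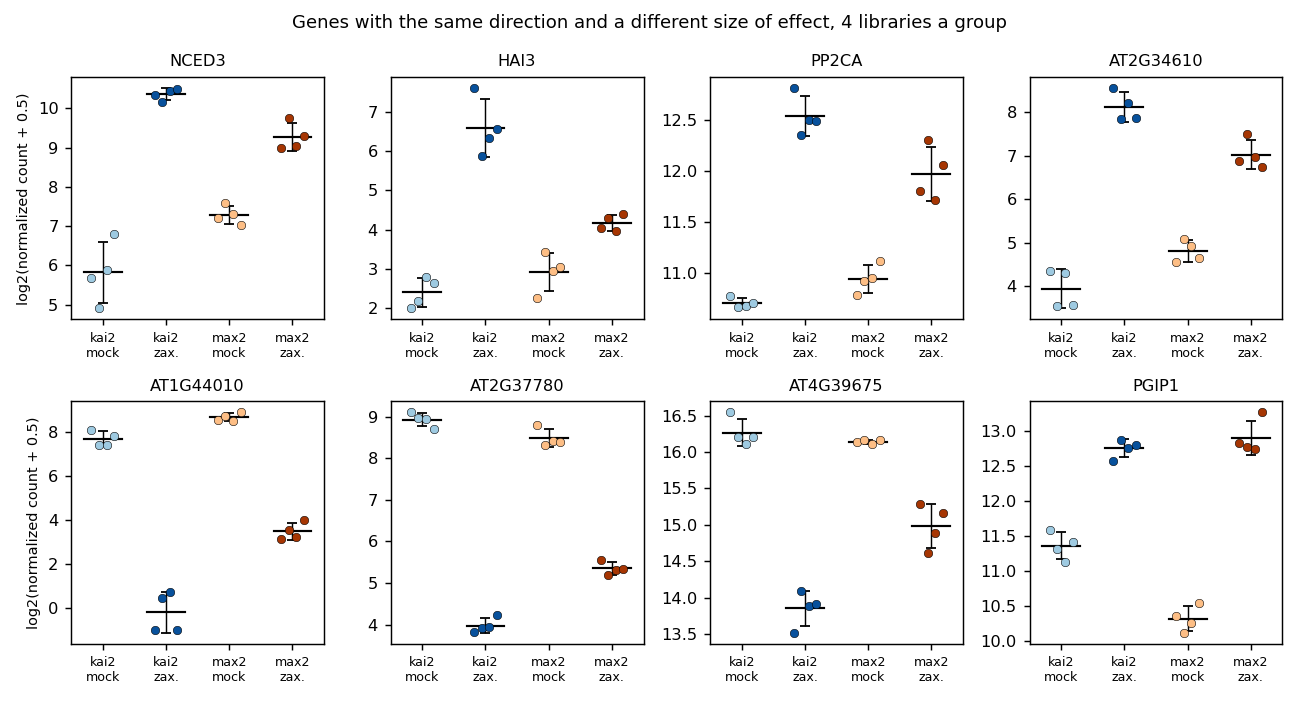
Values of 8 genes with the same direction of effect in both mutants, each point 1 library, as log2 of the normalized count plus 0.5, with the bar at the group mean and the whiskers at ±1 SD (n = 4). NCED3, HAI3, PP2CA and AT2G34610 end higher in kai2, AT1G44010, AT2G37780 and AT4G39675 end lower in kai2, and PGIP1 starts lower in max2.

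The other rises that were larger in kai2 covered transport, conjugation and genes of unassigned role. AT2G34610, annotated as a cotton fiber protein, read 19.9, 11.2, 19.3 and 11.4 in kai2 mock and 374, 227, 295 and 234 in kai2 zaxinone. The max2 libraries held 23.1, 33.7, 30.0 and 24.8 in mock and 116, 180, 125 and 106 in zaxinone. The kai2 libraries were all below those of max2 in mock and all above them in zaxinone. Its difference of 1.93 ± 0.38 (edgeR adjusted p = 0.00814) held in all 16 fits with a library left out.

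CHX17, a cation/H+ exchanger gene, read 791, 700, 767 and 911 in kai2 mock and 10016, 11466, 12073 and 10218 in kai2 zaxinone. Max2 mock libraries read 543, 2480, 2087 and 2149, so that replicate 1 lay far under the others, and 6078, 7229, 7457 and 11386 in max2 zaxinone. The mock groups and the zaxinone groups each overlapped. Its difference was 1.64 ± 0.43 (edgeR adjusted p = 0.0457), with adjusted p-values of 0.000324 to 0.114 as libraries were left out and the call kept in 2 of 16 fits.

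AT2G41190, of the amino acid transporter family, rose from 343 ± 75.7 to 2651 ± 1205 normalized counts (SD, n = 4) in kai2 and from 266 ± 70.4 to 760 ± 142 in max2. Replicate 1 of kai2 zaxinone, at 4440, lay far above the other 1833 to 2251. The difference of 1.44 ± 0.37 (edgeR adjusted p = 0.0457) became 1.07 (adjusted p = 0.0646) without that library. The peroxidase gene AT2G41480 rose from 748 ± 49.4 to 4166 ± 1057 in kai2 and from 993 ± 277 to 2643 ± 400 in max2, a difference of 1.07 ± 0.28 (adjusted p = 0.0457). AT3G56275, annotated as a pseudogene, rose from 80.6 ± 20.7 to 684 ± 121 and from 144 ± 24.7 to 548 ± 76.7, a difference of 1.14 ± 0.29 (adjusted p = 0.0456). These 2 genes kept their calls in 4 of 16 fits each.

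ABCC4, a transporter gene of the multidrug resistance family, UGT72E2, whose enzyme glucosylates monolignols, and AT5G59450, a GRAS factor gene, were named after their values were seen. ABCC4 rose from 583 ± 146 to 2453 ± 454 normalized counts in kai2 and from 735 ± 41.5 to 1482 ± 347 in max2, with every kai2 zaxinone library above every max2 zaxinone library. Its difference was 1.06 ± 0.28 (edgeR adjusted p = 0.0457). UGT72E2 reached the same range in both mutants, 13880 ± 1026 in kai2 and 15236 ± 2780 in max2, from 1417 ± 220 and 2755 ± 351 in mock. The difference of UGT72E2, 0.82 ± 0.21 (adjusted p = 0.0457), thus lay in its mock libraries, which did not overlap. AT5G59450 overlaps other annotated genes and differed by 0.75 ± 0.19 (adjusted p = 0.0457). Their calls held in 2, 3 and 2 of 16 fits with a library left out, in the same order.

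PGIP1 (AT5G06860, chr5:2132350-2133587), whose product inhibits the pectin-degrading polygalacturonases of fungi, was the exception among the 12 called same-direction rises, with the larger rise in max2. It read 3057, 2554, 2235 and 2731 in kai2 mock and 6053, 7448, 6914 and 7115 in kai2 zaxinone. Values in max2 were 1316, 1111, 1220 and 1487 in mock and 7261, 6980, 6800 and 9792 in zaxinone. The mock libraries of the mutants did not overlap and the zaxinone libraries did. Its difference was -1.21 ± 0.21 (edgeR adjusted p = 0.00453), kept in all 16 fits. In mock the log2 level of kai2 over max2 was 1.06 (adjusted p = 0.000154), and in zaxinone it was -0.16 (adjusted p = 0.484). An antisense noncoding gene overlaps PGIP1, and whether the counting used the strand is not stated.

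Of the 8 genes that fell in both mutants and passed the test, AT1G44010 (chr1:16714622-16715564), a transmembrane protein gene of unassigned role, fell furthest in kai2. It read 274, 172, 169 and 228 in kai2 mock and 0, 0.855, 1.15 and 0 in kai2 zaxinone. The max2 libraries read 373, 428, 365 and 474 in mock and 8.38, 11, 8.88 and 15.7 in zaxinone. No library of one mutant overlapped those of the other in either treatment. The fall was -8.58 ± 0.46 (log2) in kai2 and -5.21 ± 0.30 in max2, a difference of -3.37 with a 95% interval of -5.17 to -2.22 (edgeR adjusted p = 0.00685). The kai2 zaxinone values rest on single fragments, and the sequencing depth limits how low that level can be read. The kai2 error and the interval of the difference, taken from the quasi-likelihood test, understate the counting error of so few fragments.

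AT2G37780 (chr2:15837442-15838302), of the cysteine and histidine-rich C1 domain family, had the smallest p of all 1009 genes. It read 547, 496, 493 and 417 in kai2 mock and 13.7, 14.5, 15.0 and 18.2 in kai2 zaxinone. Counts in max2 were 442, 317, 343 and 335 in mock and 46.6, 36.0, 39.1 and 40.2 in zaxinone. The zaxinone groups lay wholly apart while the mock groups overlapped. Its difference of -1.84 ± 0.27 (edgeR adjusted p = 0.00152) was kept in all 16 fits with a library left out and in all 12 other settings, where it alone of the 27 passed every one.

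The C1 domain family, a group formed after values were seen, had 33 genes in both tables, all lower after zaxinone. Differences were below 0 for 21 of the 33 (63.6%), beside 64.6% of all falls, with a median of -0.15, beside -0.16 for all falls. Of the 33, 2 passed (6.06%), beside 2.68% of all genes and 8 of 438 falls (1.83%). The second was AT2G02700, which fell from 97.0 ± 24 to 12.9 ± 3.08 normalized counts (SD, n = 4) in kai2 and from 106 ± 29.0 to 49.8 ± 18.9 in max2. Its difference was -1.83 ± 0.46 (edgeR adjusted p = 0.0456), kept in 4 of 16 fits. AT2G37800, a neighbour of AT2G37780, read 126, 66.0, 49.7 and 75.1 in kai2 mock and 51.4, 29.6, 44.5 and 56.5 in max2 mock. All 8 of its zaxinone libraries had no count, which puts the fall at at least 29.7-fold in kai2 and at least 16.0-fold in max2, against a floor of 3 counts per library. No difference between the mutants can be measured for AT2G37800 under that floor.

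AT4G39675, a short hypothetical protein gene, was the most abundant gene past the threshold by normalized count. It went from 95524, 75717, 70652 and 75854 to 11726, 17497, 15156 and 15358 in kai2. In max2 it went from 72131, 73426, 70630 and 73480 to 40083, 25014, 30203 and 36554. Mock levels overlapped, and all 4 kai2 zaxinone libraries lay below those of max2. The difference of -1.28 ± 0.23 (edgeR adjusted p = 0.00453) held in all 16 fits.

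AT4G08380, an extensin-like gene of the cell wall, fell from 2720 ± 711 to 68.1 ± 25.3 normalized counts in kai2 and from 2628 ± 825 to 216 ± 58.4 in max2 (difference -1.71 ± 0.39, edgeR adjusted p = 0.0243, kept in 12 of 16 fits). AT1G63550 and AT1G63570, neighbouring genes of the receptor-like protein kinase-related family, fell together. AT1G63550 went from 97.7 ± 19.5 to 3.49 ± 1.89 in kai2 and from 87.7 ± 31.4 to 13.6 ± 2.43 in max2, a difference of -2.03 ± 0.52 (adjusted p = 0.0456). For AT1G63570 the levels were 1366 ± 241 to 70.3 ± 37.6 and 1174 ± 553 to 235 ± 68.8, a difference of -1.94 ± 0.50 (adjusted p = 0.0457). In the pair the mock groups overlapped and the zaxinone groups did not. AT2G47450, which encodes a chloroplast signal recognition particle component, fell from 2942 ± 315 to 656 ± 168 and from 1860 ± 316 to 850 ± 121 (difference -1.03 ± 0.26, adjusted p = 0.0456). The calls of AT1G63550, AT1G63570 and AT2G47450 held in 4, 3 and 4 of 16 fits.

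The genes listed in opposite directions are given by their libraries. In 6 of the 7 genes the zaxinone mean was lower than the mock mean in kai2 and higher in max2, and AT5G50550 showed the reverse. The listing itself set their differences at about 2 or more in size on the log2 scale, so that all 7 are among the 27 called genes by the way they were listed. Their differences are therefore given as a description, without the p-value. Without each library in turn the fitted directions were the same.

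AT4G27450 (chr4:13727370-13729002), annotated as an aluminum induced protein with YGL and LRDR motifs, was the most abundant of them. It read 57889, 20468, 14942 and 22803 in kai2 mock and 13590, 8993, 8349 and 6767 in kai2 zaxinone. Its max2 values were 21224, 18355, 15611 and 17027 in mock and 44252, 20580, 41200 and 53726 in zaxinone. The kai2 zaxinone libraries lay below the kai2 mock libraries and below every max2 zaxinone library, and in max2 replicate 2 of zaxinone lay within the mock range. Log2 fold changes of -1.62 ± 0.35 in kai2 and 1.15 ± 0.35 in max2 gave a difference of -2.77 ± 0.49. Without kai2 mock replicate 1 the difference was -2.19. PORB, on the opposite strand, overlaps AT4G27450.

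AT1G14550 (chr1:4978922-4980466), a peroxidase gene, read 347, 187, 200 and 107 in kai2 mock and 97.0, 80.4, 106 and 88.5 in kai2 zaxinone. Max2 libraries gave 95, 97.0, 75.6 and 46.5 in mock and 161, 96.1, 223 and 273 in zaxinone. The kai2 mock libraries all lay above the max2 mock libraries, and the zaxinone groups overlapped. The difference was -2.44 ± 0.49.

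AT1G67270, which encodes a zinc-finger domain protein, read 114, 64.0, 50.6 and 55.7 in kai2 mock and 23.7, 44.5, 15.0 and 24.8 in kai2 zaxinone. The max2 values were 52.2, 54.1, 28.0 and 20.9 in mock and 161, 45.0, 75.4 and 123 in zaxinone. The zaxinone groups lay apart, by 44.5 against 45.0 at their nearest libraries. Its difference was -2.77 ± 0.60.

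PHE1 (AT1G65330, chr1:24266257-24267336), a MADS-box factor gene known for its imprinted expression in seeds, was low in all groups. It read 16.5, 45.7, 27.6 and 34.1 in kai2 mock and 10.8, 7.69, 0 and 3.31 in kai2 zaxinone. Its max2 libraries held 5.14, 2.04, 3.11 and 4.65 in mock and 14, 19.0, 4.44 and 19.6 in zaxinone. The mock groups lay wholly apart, with kai2 the higher, and the zaxinone groups overlapped. Its difference was -4.25 ± 0.85.

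AT4G28811, a bHLH factor gene, read 413, 87.3, 32.2 and 18.2 in kai2 mock and 15.1, 17.1, 12.7 and 19.0 in kai2 zaxinone. Levels in max2 were 91.6, 28.6, 13.5 and 104 in mock and 479, 53.1, 340 and 412 in zaxinone. Within each mutant the treatments overlapped, and between the mutants the zaxinone groups did not. Its difference was -5.51 ± 1.17, and -3.93 without kai2 mock replicate 1.

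AT2G44070, of the NagB/RpiA/CoA transferase-like superfamily, read 77.2, 0, 4.60 and 12.5 in kai2 mock and 1.44, 1.71, 5.76 and 4.14 in kai2 zaxinone. Libraries of max2 read 4.28, 5.10, 1.04 and 5.42 in mock and 27.9, 8.01, 64.8 and 35.3 in zaxinone. Mock replicate 1 lay far above the other kai2 mock libraries. The difference of -5.96 ± 1.39 became -3.86 without that library. Of the 6 genes lower in kai2 and higher in max2, kai2 mock replicate 1 was the highest mock library in 5, and max2 zaxinone replicate 2 was the lowest zaxinone library in 5. The part of these libraries in the opposite directions was read only from the fits without them.

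AT5G50550, a WD40 repeat gene, moved the other way. It read 26.0, 28.4, 20.2 and 54.6 in kai2 mock and 52.5, 115, 94.5 and 50.5 in kai2 zaxinone. In max2 it read 19.7, 140, 116 and 175 in mock and 51.2, 22, 16.0 and 6.87 in zaxinone. All its groups overlapped. Its difference was 3.5 ± 0.81, and the value is uncertain because AT5G50650 has identical exons and the gene also overlaps AT5G50560.

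**Figure D3:**
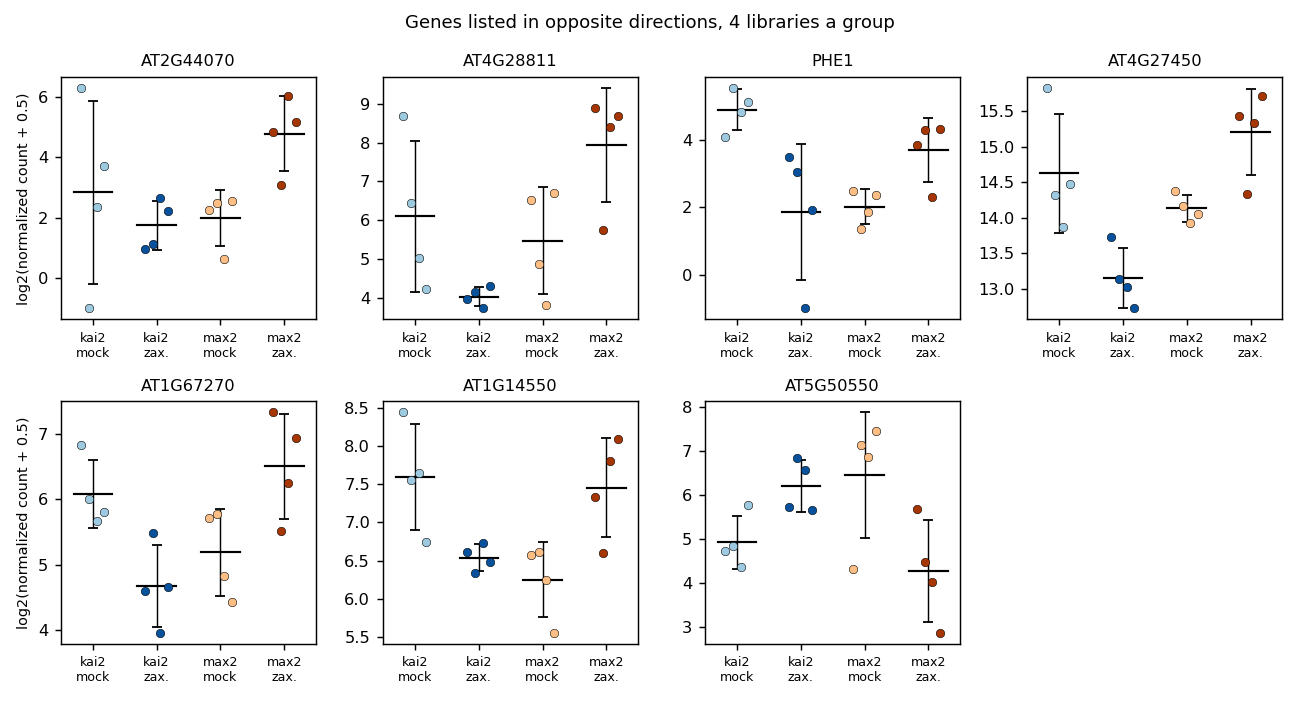
Values of the 7 genes listed in opposite directions, each point 1 library, as log2 of the normalized count plus 0.5, with the bar at the group mean and the whiskers at ±1 SD (n = 4). In 6 panels the zaxinone mean lies lower than mock in kai2 and higher in max2, with 1 high kai2 mock library (77.2) in AT2G44070, and in AT5G50550 the order is reversed.

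The difference in effect can lie in mock levels, in zaxinone levels or in both, so the mutants were also compared within each treatment on the scale of library totals. Over the 1009 genes 182 (18.0%) differed between kai2 and max2 in mock and 240 (23.8%) in zaxinone (edgeR adjusted p of 0.05). Mock levels were higher in kai2 for 85 genes (8.42%) and lower for 97 (9.61%), and zaxinone levels were higher for 114 (11.3%) and lower for 126 (12.5%). Of the 27 genes with a differing effect, 16 differed between the mutants in zaxinone libraries without passing in mock, 7 passed in mock without passing in zaxinone, and 4 passed in both. In zaxinone 17 of the 27 genes had no overlap between kai2 and max2 libraries, beside 23.8% of all genes. In mock 12 of the 27 had none, beside 20.2%. The 27 were chosen by the difference in these same libraries, which favours a gap in either treatment, and they include the genes listed in opposite directions. No excess over all genes is therefore read from these counts. Between zaxinone and mock, the contrast by which genes were listed, 972 genes (96.3%) had no overlap in kai2 and 957 (94.8%) in max2, and nothing is read from those counts.

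NCED3, AT1G14550 and AT5G50550 changed sides. For NCED3 the log2 level of kai2 over max2 was -1.33 in mock (edgeR adjusted p = 0.00493) and 1.07 in zaxinone (adjusted p = 0.00858). For AT1G14550 it was 1.44 in mock (adjusted p = 0.00981) and -1.01 in zaxinone (adjusted p = 0.0406). The remaining gene that passed in both, AT1G44010, was lower in kai2 in each treatment, by log2 values of -0.95 and -4.33. PHE1, PGIP1, UGT72E2, CHX17, AT3G56275, AT5G59450 and AT2G47450 passed in mock only, with PHE1 the furthest apart at 2.99 (adjusted p = 0.00298). AT1G14550, AT5G50550 and PHE1 were listed in opposite directions, which by itself sets a gap between the mutants in at least 1 treatment. Nothing is read from the p-values of their levels. HAI3, at 2.60 in zaxinone (adjusted p = 0.00015) and -0.56 in mock (adjusted p = 0.452), was the furthest above 0 of the genes that passed in zaxinone only.

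**Figure D4:**
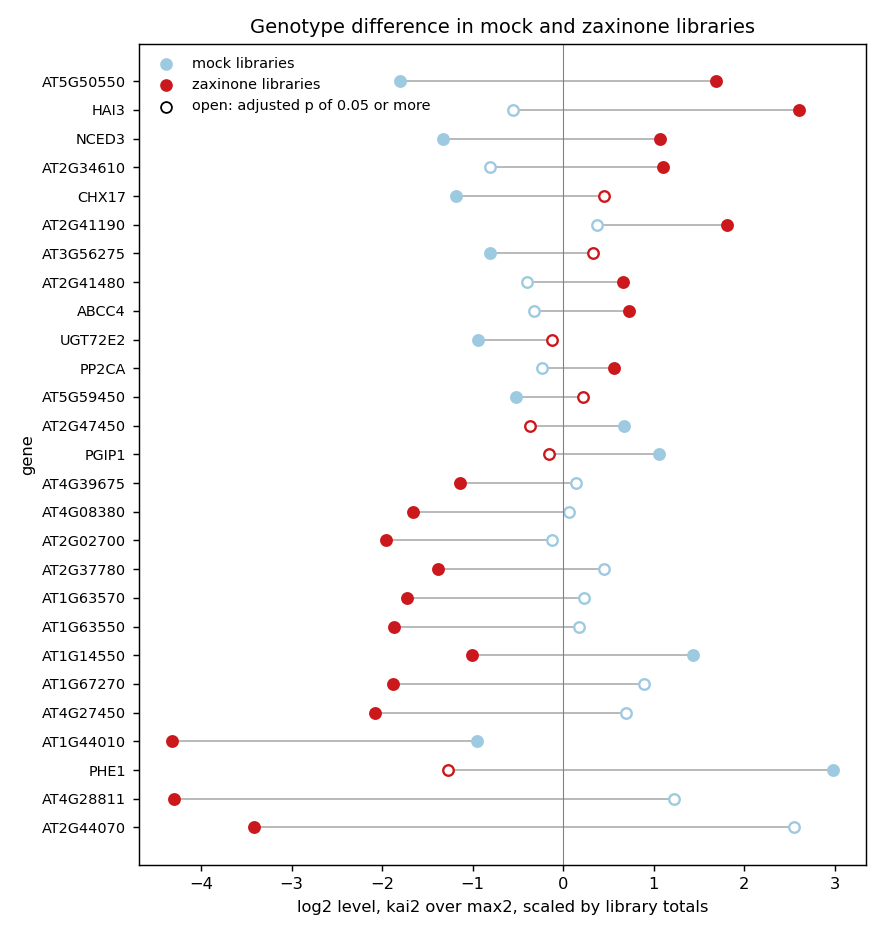
For the 27 genes with a differing effect, the log2 level of kai2 over max2 in mock (blue) and in zaxinone (red) libraries, scaled by library totals. Filled points passed an adjusted p of 0.05 in that treatment (11 in mock, 20 in zaxinone), and the gap between the points is the difference in effect.

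Among genes that did not pass, the furthest rises over both mutants were those of ABCG40, a transporter of abscisic acid, CYP81D11, a cytochrome P450 gene, and UGT73B2, a glucosyltransferase gene. ABCG40 read 7.81, 6.09, 8.28 and 5.69 in kai2 mock and 356, 421, 679 and 590 in kai2 zaxinone. In max2 it read 2.57, 3.06, 5.18 and 4.65 in mock and 222, 258, 864 and 445 in zaxinone. Every zaxinone library exceeded every mock library, and the 95% interval of the difference ran from -2.13 to 0.78.

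CYP81D11 rose from 117 ± 40.5 to 3766 ± 787 normalized counts (SD, n = 4) in kai2 and from 25.2 ± 9.70 to 2105 ± 617 in max2. Its difference of -1.38, with an interval of -2.22 to -0.55, had an edgeR adjusted p of 0.0754. UGT73B2 rose from 166 ± 68.2 to 6828 ± 328 and from 88.5 ± 18.0 to 4738 ± 828, with an interval of -1.03 to 0.25. The mock libraries of both genes lay wholly higher in kai2.

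The furthest falls without a call were AT2G37800, described above, AT1G51810, a leucine-rich repeat kinase gene, and AT4G19800, a glycosyl hydrolase gene. AT1G51810 read 115, 77.2, 137 and 97.8 in kai2 mock against a single fragment in the 4 zaxinone libraries, a 502-fold fall with an exact 95% interval of 89.6 to 19863 that covers counting error only. In max2 it read 105, 48.0, 41.4 and 45.7 in mock and 0 in zaxinone, a fall of at least 21.1-fold. AT4G19800 read 112, 82.3, 39.6 and 131 in kai2 mock and 15.4, 0, 3.11 and 9.29 in max2 mock, so that the mock libraries did not overlap. No fragment was counted in its 8 zaxinone libraries, so zaxinone levels were at least 34.2-fold lower than mock in kai2 and at least 2.44-fold lower in max2.

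Genes of xenobiotic detoxification, among them those of glutathione transferases, glycosyltransferases and cytochromes P450, formed the largest list. Of its 52 genes 25 were in both tables, all 25 higher after zaxinone. None passed the test of the difference in either direction, against 2.68% of all genes. The median difference was 0.17, beside 0.19 for all genes higher in both, and 14 of 25 were above 0. GSTU19, a glutathione transferase gene, had log2 fold changes of 3.1 ± 0.17 in kai2 and 2.67 ± 0.17 in max2. OPR1, an oxophytodienoate reductase gene, had 3.87 ± 0.15 and 3.35 ± 0.15. UGT74E2, whose enzyme glucosylates indole-3-butyric acid, had 1.91 ± 0.37 and 3.77 ± 0.41, and its difference of -1.85 ± 0.53 did not pass (edgeR adjusted p = 0.0754). In mock, UGT74E2 read 143 ± 107 normalized counts in kai2 and 30.4 ± 12.5 in max2.

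Suberin, the lipid polymer of the endodermis, and the Casparian strip were represented by 10 of 23 genes, all higher in both mutants. None passed, 9 of 10 differences were above 0, and the median was 0.29, beside 68.4% above 0 and a median of 0.19 for all genes higher in both. Kai2 mock replicate 1 was the highest of its group in 9 of the 10 genes, beside 54.6% of all genes higher in both. Without it 9 of 10 were again above 0 with a median of 0.54, beside 0.30 for all genes higher in both. Kai2 zaxinone replicate 2 was also the highest in 9 of the 10 genes, beside 20.7% of all genes higher in both. Without that library 6 of 10 were above 0 with a median of 0.19, beside 0.18 for all genes higher in both. Leaving out kai2 mock replicate 2 gave 6 of 10 and a median of 0.14, beside 0.12. MYB41, a factor that drives suberin genes, had a difference of 0.81 ± 0.46, and the exception below 0 was the Casparian strip gene CASP5 at -0.76 ± 0.56. ABCG6 and ABCG20, transporters for suberin building blocks, had intervals of -0.62 to 0.69 and -0.57 to 0.80.

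The thalianol cluster, neighbouring genes on chromosome 5 for a root triterpene, had the highest median difference of the 14 lists with at least 3 members, 1.3 over 3 genes. THAS1, the thalianol synthase gene, read 121, 35.5, 68.1 and 51.2 in kai2 mock and 2775, 3274, 4520 and 1874 in kai2 zaxinone. In max2 it read 126, 97.0, 209 and 124 in mock and 1073, 1742, 2008 and 3683 in zaxinone, and the groups of the mutants overlapped in each treatment. THAS1, CYP705A5 and CYP708A2 differed by 1.55 ± 0.53, 1.3 ± 0.41 and 0.91 ± 0.37, with edgeR adjusted p-values of 0.138, 0.109 and 0.208. Without kai2 mock replicate 1, CYP705A5 passed at 1.62 (adjusted p = 0.0289).

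**Figure D5:**
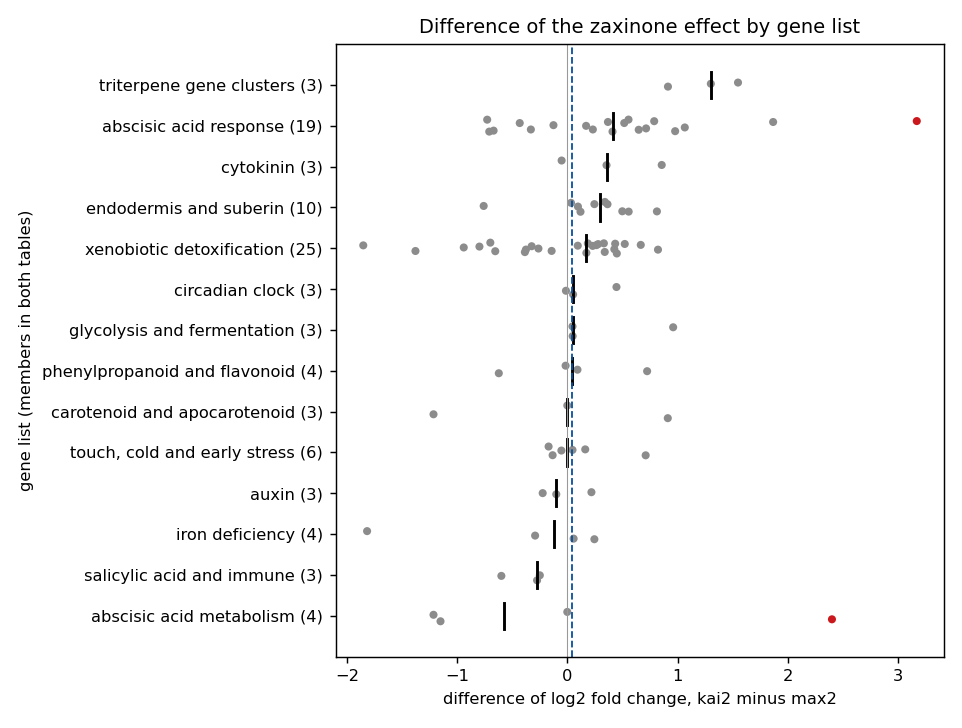
Difference of the log2 zaxinone effect, kai2 minus max2, for each member of the 14 gene lists with at least 3 genes in both tables (numbers in brackets), with the list median as a black bar and the median of all genes, 0.04, as a dashed line. The red points, HAI3 and NCED3, are the list members that passed an adjusted p of 0.05.

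Hormone lists beyond abscisic acid held few shared genes. None of the 21 genes of the strigolactone and karrikin pathway was in both tables, and 2 were in the kai2 table and 0 in the max2 table. The tables shared 3 cytokinin genes, among them IPT5, whose enzyme starts cytokinin synthesis. IPT5 fell from 3370 ± 318 to 1204 ± 286 normalized counts in kai2 and from 6051 ± 296 to 1196 ± 262 in max2. Its zaxinone levels overlapped and its mock levels did not, and the difference of 0.85 ± 0.24 did not pass (edgeR adjusted p = 0.0754). Iron, auxin, salicylic acid, carotenoid, phenylpropanoid, glycolysis and early stress lists, with 3 to 6 shared genes each, had medians of -0.28 to 0.05 and no call. The carotenoid list is not separate from abscisic acid, since it has CYP707A1 and CYP707A2 in common with the abscisic acid metabolism list. Only BETA-OHASE 1 was its own.

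The morning clock genes CCA1 and LHY, lower after zaxinone in both mutants, had differences of -0.01 ± 0.54 and 0.05 ± 0.40, the latter -0.04 with TMM scaling. Their levels differed between the mutants in each treatment. LHY averaged 82.4 ± 17.5 normalized counts in kai2 mock and 306 ± 62.9 in max2 mock, and 33.0 ± 12.4 and 121 ± 29.9 in zaxinone (SD, n = 4). The log2 level of kai2 over max2 was -1.88 in mock (edgeR adjusted p = 0.000299) and -1.84 in zaxinone (adjusted p = 0.000345). Times of harvest are not given in the labels for each library, and their part was not tested.

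The authors' deposited tables also gave the zaxinone effect in the wild type Col-0 and in d14, each against its own mock libraries. All 20 called genes with the same direction in kai2 and max2 were listed with that direction in both Col-0 and d14. Of all 1009 shared genes, 827 were listed in all 4 tables. In the authors' deposited tables the log2 fold change lay between the kai2 and max2 values for 16 of these genes in Col-0 and for 19 in d14. It was nearer to kai2 for 9 genes in Col-0 and for 10 in d14. The called genes were chosen for a wide gap between kai2 and max2, which leaves room for values between them. The same counts over all shared genes were not made, so nothing is read from these. NCED3 was listed at 3.92 in Col-0 and 3.80 in d14 in the authors' deposited tables, beside 4.42 in kai2 and 2.02 in max2. PGIP1 was listed at 1.65 and 2.21, beside 1.38 and 2.59, in the authors' deposited tables. Of the 7 genes with opposite directions, 3 were listed in Col-0 and 2 in d14. The authors' deposited tables gave AT4G27450 as -1.04 and AT4G28811 as -1.81 in Col-0, the direction seen in kai2, and AT5G50550 as 2.08 in Col-0 and -2.11 in d14.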

How the data were processed

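Polyadenylated RNA of 32 root libraries was sequenced, and the 16 of kai2 and max2 were used here. The submitters' processing notes name HISAT2 and StringTie and no versions, and the sources used here do not give the counting tool, strand setting or genome build. Per the file headers, the deposited tables hold raw counts per gene, normalized counts (a signal, raw counts scaled by a factor for each library), FPKM, a log2 fold change, and a p-value with its adjusted p-value. The tables hold only genes past the authors' thresholds. Library totals were recovered from deposited counts and FPKM with exon lengths of RefSeq TAIR10.1. For kai2 mock replicate 1 the exon lengths gave the total within 0.1% of its median for 100% of 931 genes. The other totals were scaled from that library by counts and FPKM.

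Counts of all 1009 shared genes were fitted with edgeR 4.0.16 (quasi-likelihood, R 4.3.3), 4 group means, no low-count filter, scaled by the authors' factors times the genotype's mean total. The contrast was (kai2 zaxinone minus mock) minus (max2 zaxinone minus mock), two-sided, Benjamini-Hochberg over 1009 genes. Errors are approximate standard errors of log2 values, the absolute estimate divided by the square root of the test's F value. They can be too small where a group is near 0. Intervals use these errors and are centred on the estimate without edgeR's prior count, and neither is given for the 16 genes with a group at 0. On simulated counts for this contrast, 43% of genes with a log2 difference of 1 and 86% with 2 were recovered, with 8 calls among 809 unchanged genes. The simulation gave 200 genes a difference, against 27 genes called in the data, which eases the adjusted threshold. It held no outlying library. The shares recovered can therefore be too high for these data. Replicate pairs differed by chi-square values per degree of freedom of 15.1 to 292.3, so all libraries were kept apart.

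Alternatives used TMM, recovered totals, DESeq2 1.42.0, limma-voom (limma 3.58.1), low-count filters, stricter thresholds, replicate blocks, adjustment over 24625 genes and each library left out. The members and the 31 gene lists were chosen with earlier results of these data known. Of 878 list entries 821 were matched to a gene ID, and 105 distinct genes were members. Genes were named by rule: the 8 largest called differences each way with a mean of at least 20 normalized counts, the opposite genes, called list members, the 4 smallest p-values, and the 3 furthest rises and falls without a call. The promoter windows were cut with Python 3.11.15, and exon copies were searched with blastn 2.17.0. The windows came from the RefSeq genome, because no promoter table was used.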

Additional observations from a re-analysis of the deposited data

Results flagged for a closer look

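The zaxinone effect differed between kai2 and max2 by a test of the difference itself (edgeR, adjusted p under 0.05) for 27 genes, given here as log2 values of kai2 minus max2. Larger rises in kai2 were HAI3 (3.17), NCED3 (2.4), AT2G34610 (1.93), CHX17 (1.64), AT2G41190 (1.44), AT3G56275 (1.14), AT2G41480 (1.07), ABCC4 (1.06), UGT72E2 (0.82), PP2CA (0.80) and AT5G59450 (0.75). A larger rise in max2 was found for PGIP1 (-1.21). Deeper falls in kai2 were AT1G44010 (-3.37), AT1G63550 (-2.03), AT1G63570 (-1.94), AT2G37780 (-1.84), AT2G02700 (-1.83), AT4G08380 (-1.71), AT4G39675 (-1.28) and AT2G47450 (-1.03). Opposite directions, which the listing fixed and with them a large difference, gave AT5G50550 (3.5), AT1G14550 (-2.44), AT1G67270 (-2.77), AT4G27450 (-2.77), PHE1 (-4.25), AT4G28811 (-5.51) and AT2G44070 (-5.96).

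In 132 groups of named genes tested for a library far from the other 3, 8 were found, where chance flags about 1 in 20 groups. Values are normalized counts. AT2G41190 read 4440 in kai2 zaxinone replicate 1 against 1833 to 2251 in the others. AT2G44070 read 77.2 in kai2 mock replicate 1 against 0 to 12.5. PGIP1 read 9792 in max2 zaxinone replicate 4 against 6800 to 7261, and AT4G08380 read 106 in kai2 zaxinone replicate 2 against 54.6 to 56.5. CYP81D11 read 177 in kai2 mock replicate 4 against 90.2 to 103, and UGT73B2 read 267 in kai2 mock replicate 1 against 118 to 141. AT1G51810 read 105 in max2 mock replicate 1 against 41.4 to 48.0, and 0.827, a single fragment, in kai2 zaxinone replicate 4 against 0 in the others.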

How the results depend on the processing

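The 27 calls of the difference were 54 with DESeq2 on the authors' factors and 62 with its own. They were 10 at an adjusted p of 0.01, and 1, AT2G37780, with adjustment over 24625 genes. That number of tested genes was inferred from the deposited p-values of kai2 (24534 for max2). Genes not listed in both tables had no p-value of the difference, so the count of 1 is a lower bound. Leaving out a library gave 12 to 28 calls. The count fell below 18 without kai2 mock replicate 2 (14) or 3 (15), kai2 zaxinone replicate 2 (16), 3 (15) or 4 (14), max2 mock replicate 3 (15) or 4 (13), and max2 zaxinone replicate 1 (15) or 3 (12). Only 12 genes were called in all 16 of these fits. Of them AT4G28811, PHE1, AT4G27450, AT1G67270 and AT1G14550 were listed in opposite directions. That listing fixed a large difference, so nothing is read from their kept calls. The others were AT1G44010, AT2G37780, AT4G39675, PGIP1, AT2G34610, NCED3 and HAI3. The 182 calls of mock levels ranged from 111 to 204 (111 and 117 without max2 mock replicates 2 and 4), and the 240 of zaxinone levels from 134 to 267 (141 without kai2 zaxinone replicate 1, and 158, 150 and 134 without max2 zaxinone replicates 1, 3 and 4). With TMM the list medians were -0.68 for abscisic acid metabolism, -0.23 for iron and -0.057 for glycolysis. The cause of these moves was not tested. The differences of the 33 genes named by rule or called kept their sign in every setting run, while LHY and GAPC1, near 0, went to -0.04 and -0.057 with TMM. The opposite directions, checked by an alternative chosen after seeing the data, held for all 7 genes without each library, but the listing had set these directions.

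Replicate numbers did not pair libraries: same-number correlations of deviations ran from -0.20 to 0.15, and 2 of 8 zaxinone libraries correlated best with their own number's mock. With the replicate number as a block 14 genes passed, and 13 with a block within each genotype. Depth limits AT1G44010, AT2G37800, AT1G51810 and AT4G19800, whose zaxinone groups were at or near 0.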
